A study of Mus musculus with 43 samples.

Results

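The retinal pigment epithelium is the pigmented cell layer behind the photoreceptors, and its RNA was followed here through 10 genes: *Rpe65*, *Lrat*, *Rgr* and *Rdh5*, which handle retinoids, *Best1* and *Ttr*, a channel and a carrier, and *Tyr*, *Tyrp1*, *Pmel* and *Mlana*, which build the melanosome. They were chosen by gene symbol from the 54532 genes of the count table, and all 10 were among the 18197 genes that passed the filter on low counts. Bulk RNA sequencing was done on 43 libraries of mouse retina after laser-induced choroidal neovascularization (CNV), a lesion in which a laser opens the membrane under the pigment epithelium and vessels of the choroid grow in. Each library pooled 2 retinas from different C57BL/6J animals, lasered at 9 weeks of age. Every group, controls included, carried the laser lesion, so no library shows unlasered retina. The treated animals drank short-chain fatty acids (SCFA) from before the lesion until collection, given in the labels as 67.5 mM sodium acetate, 40 mM sodium propionate and 25 mM sodium butyrate; the masses per litre beside them put butyrate above propionate, so the order of those doses is uncertain. The control groups held 3 female libraries on each of days 3, 7 and 14 after the laser (days post-laser, dpl), and 4, 3 and 3 male libraries on those days. The SCFA groups held 5, 4 and 4 female libraries and 3, 5 and 3 male libraries.

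In the visual cycle, the pigment epithelium takes up the spent chromophore of the photoreceptors, esterifies it through the enzyme LRAT, isomerizes it to the 11-cis form through RPE65, and oxidizes the product through RDH5 so that it can return to the photoreceptors, while RGR is an opsin of the same cells that binds retinal. Transthyretin (TTR) carries retinol-binding protein and thyroxine, and bestrophin 1 (BEST1) is a chloride channel of the basolateral membrane. Tyrosinase (TYR) and TYRP1 make melanin, PMEL forms the fibrils on which it is laid down, and MLANA is a melanosome membrane protein. The melanosome genes are also used by the melanocytes of the choroid and iris, whereas the retinoid genes are not known as melanocyte genes. In bulk RNA, fewer pigment epithelium cells and less RNA per cell cannot be told apart.

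Library totals lay between 14826957 and 21507527 counts, with a median of 17683615. Levels are given as counts scaled to a library size of 1000000 (CPM) after adjustment by edgeR's TMM factors, and 3 counts corresponded to 0.134 to 0.246 CPM. The 43 columns of the table fall into a first run of 31 and a second run of 12, which here are only an order of columns with no label of date or preparation. All libraries carried abundant rod photoreceptor RNA, since 8 rod genes summed to at least 53279 CPM. The library female SCFA 3 dpl replicate 2 stood apart: 9 lens crystallin genes summed to 269129 CPM in it and to at most 817 CPM in any other library, and its TMM factor was 0.703 against 0.939 or more elsewhere. The library labelled female control 7 dpl replicate 2 held 40.7 CPM of Y-linked transcripts, against at least 135.5 CPM in the 21 male libraries, so its label may not describe all of its RNA. Several results that rest on either are given with and without it. Others, among them the fold changes over time, the pairwise correlations and the ratios between genes within a library, are given only with both.

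The sequence just upstream of the start was read for the 7 members found in the RefSeq promoter table (GRCm38.p6), 250 bases each. They were searched for CATGTG, which reads CACATG on the other strand, the E-box type bound by the pigment cell factor MITF, and for TAATCC, which reads GGATTA on the other strand, the homeobox motif of the OTX and CRX family; the motifs do not overlap each other. The regions of a pair of melanosome genes and a pair of retinoid genes, each with a motif match, are shown. They are written 5′ to 3′ on the strand of the gene, with the motif matches in capitals.
*Tyr*, chr7:87493513-87493762, minus strand: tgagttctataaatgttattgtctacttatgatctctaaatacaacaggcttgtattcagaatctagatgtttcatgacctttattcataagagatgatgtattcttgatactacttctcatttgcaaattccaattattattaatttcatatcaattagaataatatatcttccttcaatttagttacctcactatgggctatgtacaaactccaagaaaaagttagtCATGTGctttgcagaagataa
*Tyrp1*, chr4:80833963-80834212, plus strand: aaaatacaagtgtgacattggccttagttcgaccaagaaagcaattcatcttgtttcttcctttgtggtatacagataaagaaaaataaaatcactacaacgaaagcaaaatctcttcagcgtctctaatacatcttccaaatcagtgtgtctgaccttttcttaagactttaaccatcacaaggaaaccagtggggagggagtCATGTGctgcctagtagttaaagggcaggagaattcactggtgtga
*Rpe65*, chr3:159598931-159599180, plus strand: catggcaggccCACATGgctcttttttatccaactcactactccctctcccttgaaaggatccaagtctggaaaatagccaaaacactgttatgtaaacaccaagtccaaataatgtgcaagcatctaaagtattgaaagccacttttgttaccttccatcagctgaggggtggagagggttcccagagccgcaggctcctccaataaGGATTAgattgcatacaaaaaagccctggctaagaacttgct
*Rgr*, chr14:37049015-37049264, minus strand: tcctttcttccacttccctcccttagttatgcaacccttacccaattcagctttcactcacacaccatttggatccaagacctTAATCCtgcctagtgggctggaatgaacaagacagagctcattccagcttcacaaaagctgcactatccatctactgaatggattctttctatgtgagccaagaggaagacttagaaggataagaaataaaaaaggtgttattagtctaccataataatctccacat
In *Tyr* and *Tyrp1*, CATGTG began 21 and 46 bases before the RefSeq start. *Rpe65* held CACATG at −239 and GGATTA at −42, and *Rgr* held TAATCC at −167. *Best1* held TAATCC at −227, and *Lrat* and *Rdh5* held neither. Thus 3 of 7 members held the CATGTG type and 3 of 7 the TAATCC type, beside 12.3% and 6.25% of 32851 promoters of that length. A match of letters is a description and not evidence of binding.

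The members were found at very different levels. Per kilobase of exon, the median over the 43 libraries was 130.3 CPM for *Ttr*, 17.5 for *Rgr*, 13.8 for *Rpe65*, 8.56 for *Rdh5*, 3.38 for *Tyrp1*, 2.74 for *Pmel*, 1.79 for *Lrat*, 1.73 for *Mlana*, 0.538 for *Tyr* and 0.236 for *Best1*. *Ttr*, *Rgr*, *Rpe65* and *Rdh5* thus stood above all melanosome genes, *Lrat* lay among the latter, and *Best1* was close to the limit of detection, with 3 to 19 counts per library and 1 library at 3 counts. For *Lrat*, *Rdh5* and *Pmel*, other annotated genes overlap the locus (*Rbm46os* on the opposite strand of *Lrat*, *Bloc1s1* on the strand of *Rdh5*, *Dgka* and *Cdk2* on the opposite strand of *Pmel*), and the strand setting of the counting is not given in the sources used here, so a part of these counts may belong to the neighbours.

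Between libraries the levels of most members varied by an order of magnitude or more. *Rpe65* ran from 4.07 CPM in male control 3 dpl replicate 4 to 165.7 CPM in female SCFA 3 dpl replicate 2, a ratio of 40.7, with a median of 26.8 CPM. *Ttr* ran from 26.8 to 891 CPM, *Rgr* from 19.1 to 549.6 CPM and *Rdh5* from 5.68 to 140.5 CPM, each with the same lowest and the same highest library. *Lrat* lay between 2.05 and 91.7 CPM. The melanosome genes spread over similar ranges, *Tyr* from 1.22 to 21.6, *Tyrp1* from 3.90 to 43.2, *Pmel* from 2.54 to 47.7 and *Mlana* from 0.211 to 16.4 CPM. Of these, *Mlana* was the one whose highest library was another, namely female control 7 dpl replicate 1. *Best1* moved least, from 0.153 to 1.39 CPM. Summed over the 10 members, the lowest library held 79.0 CPM and the highest 1961 CPM. Of the 10 libraries with the lowest sums, 8 belonged to the second run of columns, and of the 10 with the highest sums, 0.

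**Figure D1:**
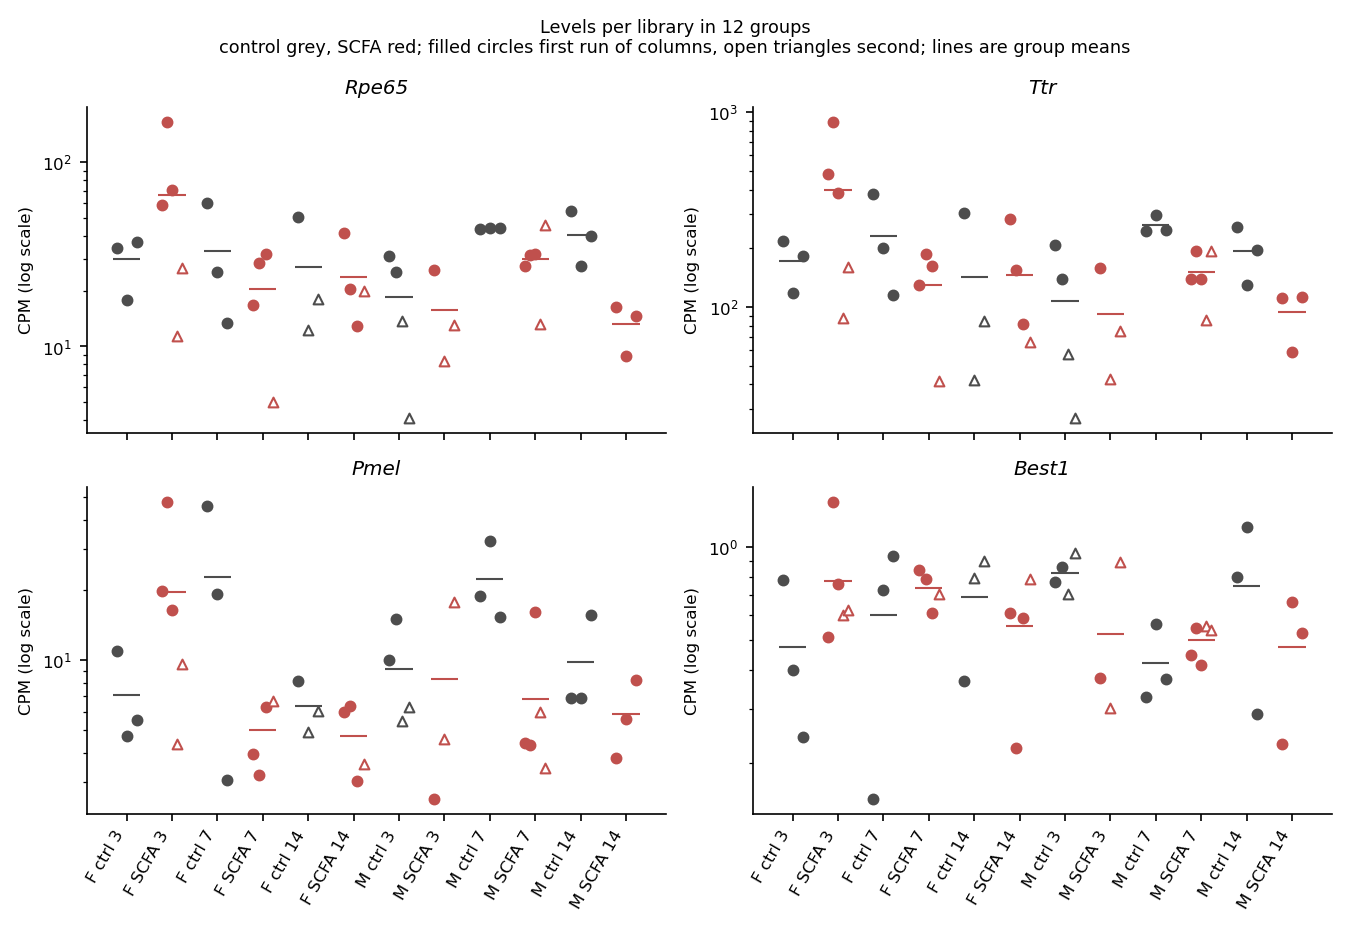
CPM (log scale) of *Rpe65*, *Ttr*, *Pmel* and *Best1* in each of 43 libraries, by group (F or M, ctrl or SCFA, days post-laser); circles are the first run of columns, open triangles the second, and lines the group means. *Rpe65* and *Ttr* share the lowest library (4.07 and 26.8 CPM) and the highest (165.7 and 891 CPM), whereas *Best1* stays between 0.153 and 1.39 CPM.

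The order of the 12 groups was described with a retinoid score, the mean of log2(CPM + 1) over *Rpe65*, *Lrat*, *Rgr* and *Rdh5*. It was highest in female SCFA 3 dpl (5.74 ± 1.38, SD, n = 5) and male control 7 dpl (5.47 ± 0.14, n = 3) and lowest in male SCFA 14 dpl (4.10 ± 0.30, n = 3). Without female SCFA 3 dpl replicate 2 the former mean was 5.28 ± 1.08 (n = 4), below that of male control 7 dpl. The other groups lay between 4.20 and 5.27. In none of the 11 neighbouring pairs of this order did the means differ by more than the larger of their SDs. Neighbours in a sorted order lie close by construction, so this says nothing of groups farther apart. Male control 7 dpl and male SCFA 14 dpl, for example, differed by more than either SD. A melanosome score, made in the same way from *Tyr*, *Tyrp1*, *Pmel* and *Mlana*, was highest in male control 7 dpl (3.58 ± 0.39, n = 3) and lowest in female SCFA 14 dpl (2.15 ± 0.55, n = 4).

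The members rose and fell together from library to library, but in blocks. After removal of the group means and the column run, the pairwise Pearson r over the 43 libraries was 0.80 to 0.96 among the retinoid genes, and *Ttr* joined them with 0.85 to 0.94. *Pmel*, *Mlana* and *Tyrp1* formed another block with r of 0.84 to 0.91. Across the blocks, *Pmel* and *Mlana* reached only 0.36 to 0.50 with the retinoid genes, and *Tyr* lay in between, with 0.71 to 0.77 toward the retinoid genes and *Ttr* and 0.66 to 0.78 toward the melanosome genes. *Best1* followed none of them, its r lying between −0.12 and 0.05. These correlations share the library and its scaling and are descriptions. Without female SCFA 3 dpl replicate 2, each member's r with the mean of the others was 0.62 to 0.85, and −0.24 for *Best1*.

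A like pattern was seen in ratios within a library, in which the scaling to library size cancels. Group means and the column run were not removed here, and counting error widens the SD of genes with few counts. On the log2 scale, the counts of *Rgr* relative to *Rpe65* had a mean of 1.71 and an SD of only 0.23 over the 43 libraries. The SD was 0.32 for *Ttr* and 0.36 for both *Rdh5* and *Lrat*. It widened to 0.56 for *Tyr*, 0.82 for *Tyrp1*, 1.0 for *Pmel* and 1.13 for *Mlana*. The widest was that of *Best1*, 1.28, at a median of 11 counts. *Rgr* thus kept a nearly fixed proportion to *Rpe65* while *Rpe65* itself varied 40.7-fold, and the melanosome genes did not.

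**Figure D2:**
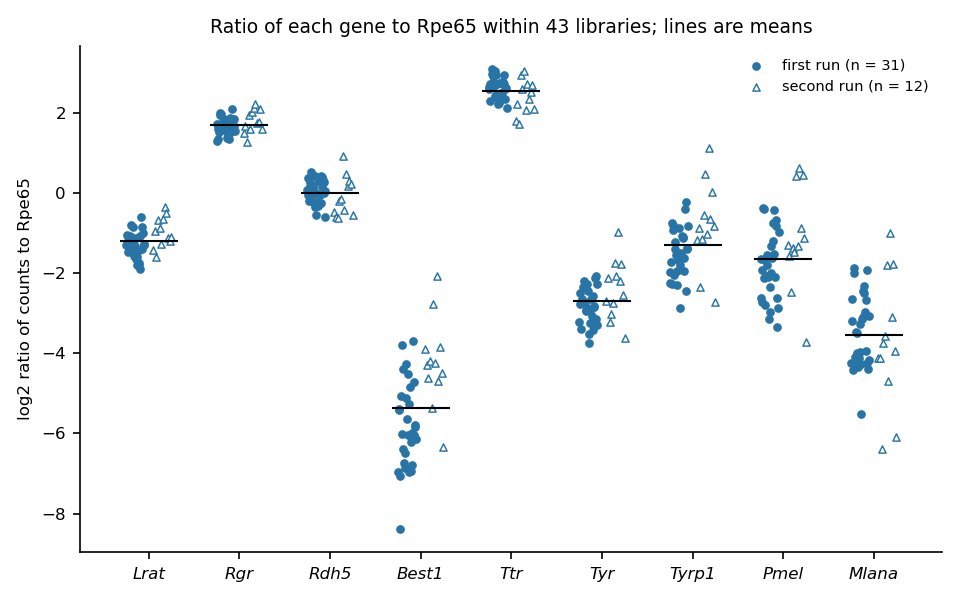
log2 ratio of each gene's counts to those of *Rpe65* (0.5 added to both) in 31 libraries of the first run (circles) and 12 of the second (triangles), with the mean over all 43 as a line. The points are tight for *Rgr* (SD 0.23) and *Ttr* (SD 0.32) and wide for *Pmel* (SD 1.0), *Mlana* (SD 1.13) and *Best1* (SD 1.28).

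The retinoid and the melanosome score were correlated over the 43 libraries, with Pearson r of 0.72 and Spearman rho of 0.68. Without the 2 libraries farthest from the median retinoid score, female SCFA 3 dpl replicate 2 and male control 3 dpl replicate 4, r was 0.67. The relation held in the 31 libraries of the first run (r = 0.77, rho = 0.71). In the 12 of the second run r was 0.15 and rho 0.08, so it was not found within that run. An r over 12 libraries is imprecise, and the difference between the runs was not tested. After removal of the group means and the column run, r over the 43 libraries was 0.57, and 0.51 without female SCFA 3 dpl replicate 2. Other genes of the pigment epithelium, 18 of them fixed as a list including the channel *Kcnj13*, the lactate carrier *Slc16a8* and the retinol transporter *Stra6*, followed the retinoid score in both runs, with r of 0.92 and 0.82. The 11 other melanosome genes did so in the first run (0.84) but not in the second (0.19). Beside this, r was 0.54 and −0.005 in the 2 runs for choroid fibroblast and fenestrated vessel genes, −0.17 and −0.26 for ciliary epithelium genes, 0.61 and 0.23 for lens crystallins, and 0.39 and 0.63 for Müller glia genes. For the 15 other visual cycle genes r was 0.81 in the first run and 0.91 in the second, so they too followed the retinoid score in both. *Stra6* is on this list as well as on that of the pigment epithelium. The remaining lists, optic nerve myelin, rod and red blood cell genes, lay between −0.21 and 0.22 in either run. No p is given for these scores, since the genes in them were chosen with earlier results of these data known.

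**Figure D3:**
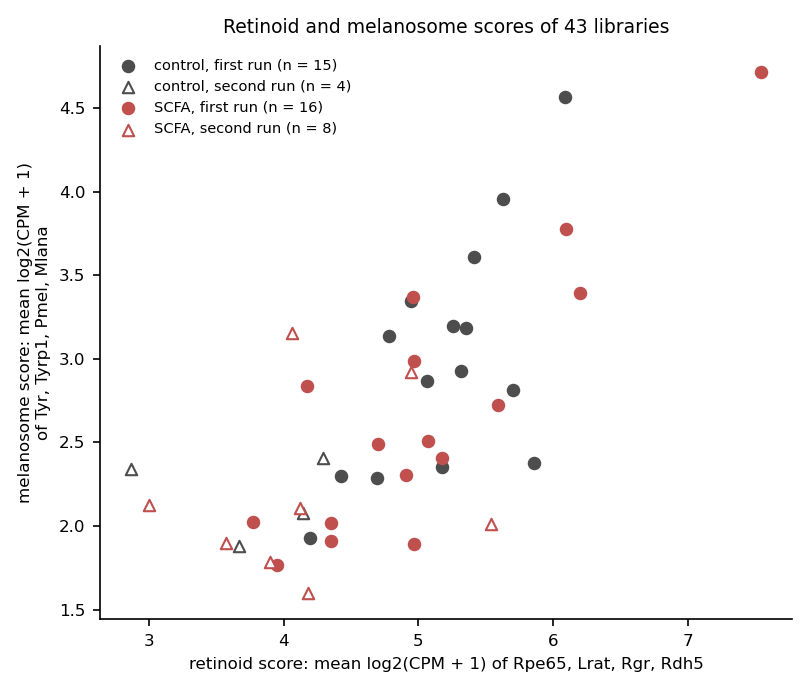
Melanosome score against retinoid score (means of log2(CPM + 1) over 4 genes each) for 43 libraries, by treatment (colour) and run of columns (shape). The scores rise together in the first run (r = 0.77), but not in the second (r = 0.15), whose 12 libraries lie mostly at the lower left; the point at the upper right is female SCFA 3 dpl replicate 2.

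The 10 genes outside the list whose variation was most like that of the members, by r with the residual mean of the 10 over 43 libraries, included *Tspan10* (0.91), *Tmem98* (0.89), *Cpxm2* (0.87), *Kcnj13* (0.86), *Sult1c1* (0.86), *Oca2* (0.86), *Cltrn* (0.86), *Col8a2* (0.85) and *Tmem72* (0.85). *Kcnj13*, the inward rectifier of the pigment epithelium, and *Oca2*, a melanosome transporter, were on the fixed lists. Without female SCFA 3 dpl replicate 2, 9 of the 10 remained and *Nog* took the place of *Col8a2*.

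The contrast with the most members called was that between the runs of columns, which the fit carried as a block beside the 12 groups. In the second run 7 of the 10 members were lower past both thresholds used throughout, an adjusted p under 0.1 and a log2 fold change over 1 in size, where 4.8% of all genes tested were called and 2.97% were called and lower. The 12 libraries of the second run held 13.1 CPM of *Rpe65* at the median (4.07 to 45.5), against 31.5 CPM (8.93 to 165.7) in the first. *Ttr* was lower by −1.57 ± 0.24 (log2 fold change ± SE, adjusted p = 2.5e-06), from a median of 187.5 to 70.8 CPM. *Rdh5* was lower by −1.49 ± 0.24 (adjusted p = 5.4e-06). *Rpe65*, *Rgr* and *Lrat* were lower by −1.30 ± 0.28, −1.20 ± 0.25 and −1.13 ± 0.28 (adjusted p = 0.00024, 0.00023 and 0.0013). Of the melanosome genes, *Tyr* (−1.13 ± 0.26, adjusted p = 0.00054) and *Mlana* (−1.39 ± 0.39, adjusted p = 0.0036) passed. The other members, *Best1*, *Tyrp1* and *Pmel*, lay between −0.64 and 0.20, with adjusted p of 0.039 to 0.55. The smallest of these is under 0.1, so that member failed only the threshold on the fold change. Of 18 other pigment epithelium genes 4 were lower (*Slc16a8*, *Ermn*, *Krt8*, *Kcnj13*), as were 1 of 15 other visual cycle genes (1 was higher), 3 of 8 choroid genes, 4 of 9 lens crystallins, 4 of 7 myelin genes and 3 of 4 red blood cell globins, while no rod gene was called. The groups are unevenly spread over the runs: 5 of the 12 have no second-run library, and in female control 14 dpl and male SCFA 3 dpl 2 of 3 libraries are of the second run.

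In females at 3 dpl, 6 of the 10 members were higher with SCFA than in controls, where 2.09% of all genes were called and 1.74% were called and higher. All 10 had a log2 fold change above 0, with a median of 1.52 against 0.01 for all genes. *Lrat* measured 25.9, 91.7, 30.8, 7.17 and 14.7 CPM in the SCFA libraries and 16.7, 7.48 and 13.2 CPM in the controls (1.66 ± 0.51, adjusted p = 0.060). *Ttr* measured 479, 891, 383, 87.5 and 160.9 CPM against 217, 117.2 and 183 CPM (1.53 ± 0.44, adjusted p = 0.047). The 3 highest values of each are the SCFA libraries of the first run, and the second-run SCFA libraries lie within or below the controls. *Tyrp1* rose by 1.65 ± 0.47 (adjusted p = 0.045), with 20.04, 43.2, 14.4, 5.09 and 18.3 CPM against 8.73, 5.37 and 7.66 CPM. *Rgr* (1.53 ± 0.47, adjusted p = 0.057), *Tyr* (1.5 ± 0.45, adjusted p = 0.055) and *Rdh5* (1.27 ± 0.43, adjusted p = 0.083) passed as well. *Rpe65*, with 58.4, 165.7, 70.5, 11.4 and 26.8 CPM against 34.4, 17.9 and 36.8 CPM, had a log2 fold change of 1.39 but an adjusted p of 0.104, and was not called. In each of the 10 members the groups overlapped.

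The calls depended on single libraries. Without female SCFA 3 dpl replicate 2, the library rich in lens crystallins, 0 members were called, and the log2 fold changes of the 6 fell to between 0.80 (*Rdh5*) and 1.20 (*Tyrp1*), with adjusted p of 0.21 to 0.36. All calls were also lost without female control 3 dpl replicate 2 or replicate 3 (0 called each), where the log2 fold changes of the 6 were 1.11 to 1.70, and in a fit without the block for the column run (0 called), where they were 0.99 (*Rdh5*) to 1.47 (*Tyrp1*). Within the first run alone, 3 against 3 libraries that still include female SCFA 3 dpl replicate 2, 8 members were called, all but *Best1* and *Mlana*. With SCFA, 8 of 18 other pigment epithelium genes were higher, among them *Ermn* (1.80) and *Stra6* (1.26), and so were 2 of 15 other visual cycle genes, *Oca2* among 11 other melanosome genes, the choroid fibroblast genes *Dcn* (3.13) and *Lum* (2.33), 9 of 9 lens crystallins, and 1 of 7 optic nerve myelin genes, *Mobp* (5.34, adjusted p = 0.093). *Stra6* is on the pigment epithelium and the visual cycle list and is counted in both. The crystallins summed to 110.1 to 269129 CPM with SCFA and 67.6 to 519 CPM in controls, and the 8 choroid genes to 71.8 to 210.1 against 82.1 to 119.5 CPM. All 7 myelin genes had a log2 fold change above 0, with a median of 1.16, and summed to 25.4 to 128.5 against 24.9 to 26.5 CPM. The part of these lists in the result was not tested.

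In females at 7 dpl no member was called by edgeR, where 0.121% of all genes were, while 2 members had an unadjusted p under 0.05 and DESeq2 called 1, *Pmel*. DESeq2 gave 3 members no adjusted p there, so it could not call them. The 2 largest differences were in *Pmel* and *Mlana*. *Pmel* measured 46.1, 19.3 and 3.06 CPM in controls and 3.96, 3.20, 6.27 and 6.67 CPM with SCFA, and *Mlana* 16.4, 6.28 and 0.665 CPM against 0.950, 1.80, 3.29 and 1.40 CPM. The controls spread around the SCFA libraries in both, and the second of the control values is that of the library with Y-linked transcripts. Both were called lower without control replicate 3 (2 members), and *Pmel* was called without SCFA replicate 4 and in the first run alone (1 member each). Leaving out the control with Y-linked transcripts, replicate 2, gave 0 called members. At 14 dpl in females no member was called by edgeR or DESeq2 and 0 had an unadjusted p under 0.05. The log2 fold changes were −0.69 to −0.24, and 0% of all genes were called.

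In males at 3 dpl, too, no member was called by edgeR or DESeq2, 0 had an unadjusted p under 0.05, and the log2 fold changes lay between −0.71 (*Best1*) and 0.32 (*Lrat*), where 0.011% of all genes were called. Only 1 of the 3 SCFA libraries and 2 of the 4 controls belong to the first run there. DESeq2 gave 1 member no adjusted p in this comparison, so it could not call that member.

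In males at 7 dpl, *Pmel* and *Mlana* were lower with SCFA, 2 of 10 members, where 3.37% of all genes were called and 1% were called and lower. *Mlana* measured 7.72, 8.70 and 5.59 CPM in controls and 1.28, 1.74, 3.73, 0.834 and 0.644 CPM with SCFA, so that the groups did not overlap (−1.78 ± 0.62, adjusted p = 0.047). *Pmel* measured 18.8, 32.6 and 15.4 CPM against 4.41, 4.32, 16.0, 6.01 and 3.43 CPM (−1.51 ± 0.59, adjusted p = 0.078). Here 4 of the 5 SCFA libraries lie below all controls and replicate 3 lies among them. The other 8 members had log2 fold changes from −0.45 (*Tyrp1*) to 0.65 (*Lrat*). The controls all belong to the first run, and *Rpe65* was nearly equal in them (43.4, 43.8 and 44.0 CPM). It measured 27.4, 31.5 and 31.6 CPM in the first-run SCFA libraries, all below the controls, and 13.2 and 45.5 CPM in the second-run ones. *Rgr* was likewise lower in the first-run SCFA libraries (87.4, 114.1 and 92.5 CPM) than in the controls (123.3, 161.9 and 127.4 CPM). For *Rdh5* and *Ttr* all 5 SCFA libraries lay below all controls, where 8.63% of all genes had groups that did not overlap in that direction. The fit, in which the term for the run was estimated from all libraries, gave log2 fold changes of 0.08, −0.11 and −0.02 for *Rpe65*, *Rdh5* and *Ttr*. In the first run alone, 2 of the 10 members had a log2 fold change above 0.

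Among other melanosome genes, *Mlph*, which links melanosomes to myosin, was lower as well (−1.61, adjusted p = 0.029), 1 of 11. None of 18 other pigment epithelium genes or of 8 choroid genes was called; the latter summed to 146.2 to 167.7 CPM in controls and 48.2 to 180.2 CPM with SCFA. The ciliary gene *Col9a3* was lower (−1.03, adjusted p = 0.0065) and the Müller glia gene *Glul* higher (1.03, adjusted p = 0.00056). Without any call, the 9 lens crystallins all lay above 0 (median log2 fold change 1.49) and the 7 myelin genes all below 0 (median −1.16); their part in the result was not tested. In the first run alone, 3 against 3 libraries, 1 of the 2 calls was kept (*Mlana*, adjusted p = 0.095), and *Pmel* had −1.44 at an adjusted p of 0.12. Both calls were lost without SCFA replicate 1 or control replicate 2 (0 called), and 1 without SCFA replicate 2 or 5 or control replicate 1 or 3 (1 called each). Over all fits that left out 1 library, *Mlana* had −1.61 to −2.15 with adjusted p of 0.047 to 0.14, and *Pmel* −1.14 to −2.05 with 0.040 to 0.31.

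In males at 14 dpl, *Rpe65* was lower with SCFA, the 1 member called, where 1.07% of all genes were called and 0.357% were called and lower. It measured 54.5, 27.3 and 39.6 CPM in controls and 16.3, 8.93 and 14.6 CPM with SCFA (−1.61 ± 0.55, adjusted p = 0.097). All 6 libraries belong to the first run, and the groups did not overlap. The same was true of *Lrat*, *Rgr*, *Rdh5* and *Ttr*, whose SCFA libraries all lay below the controls. For *Ttr* these were 112, 58.7 and 113 CPM against 256, 129 and 196 CPM. Over all genes, 17.8% had groups that did not overlap in that direction. The log2 fold changes of the 9 members not called ran from −1.28 (*Lrat*) to −0.16 (*Mlana*), all below 0, with adjusted p of 0.16 to 0.92, and the median of the 10 was −0.89 against 0.01 for all genes. The melanosome genes overlapped between the groups, *Pmel* with 3.80, 5.60 and 8.21 CPM against 6.91, 6.87 and 15.7 CPM. The call did not withstand the loss of any of the 6 libraries (0 members called each time), although the log2 fold change of *Rpe65* stayed between −1.33 and −1.83, with adjusted p of 0.14 to 0.31, whereas 5 members were called when the 6 libraries were fitted apart from the others. No gene of any of the other lists was called. All 9 lens crystallins lay below 0, with a median log2 fold change of −1.85, and summed to 50.9 to 115.0 CPM with SCFA and 94.6 to 256.6 CPM in controls; their part in the result was not tested. The 18 other pigment epithelium genes summed to 605 to 653 CPM with SCFA and 646 to 734 CPM in controls.

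**Figure D4:**
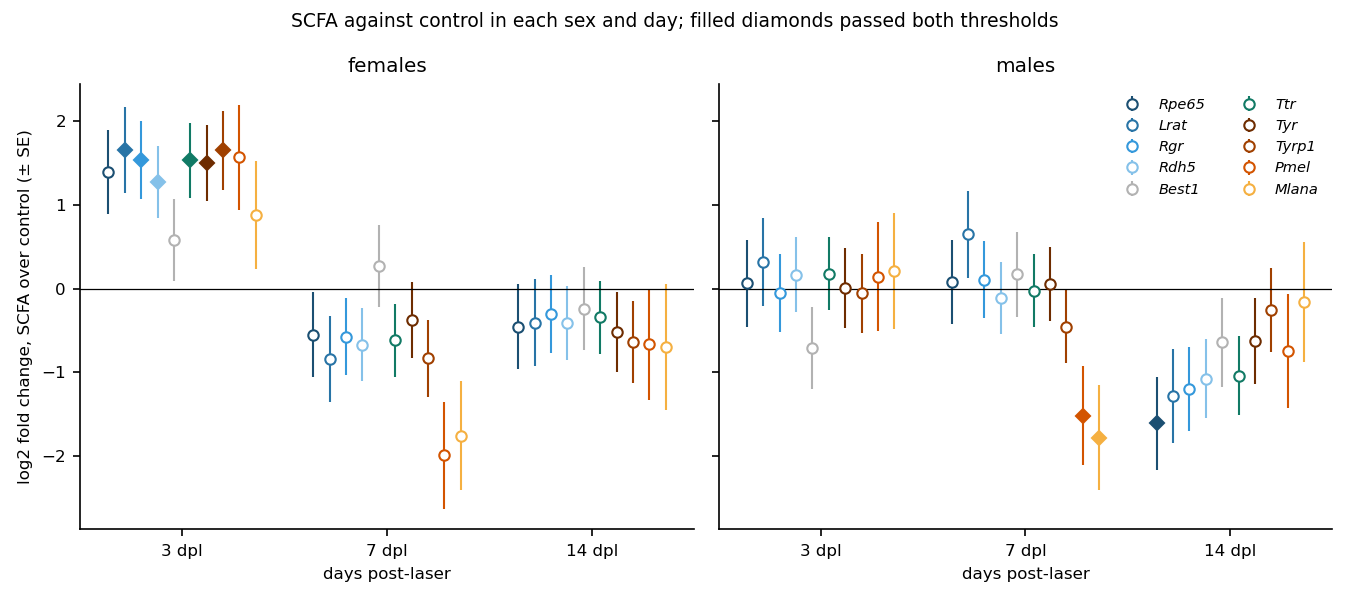
log2 fold change of the 10 members (± SE from the fit), SCFA over control, at 3, 7 and 14 dpl in females and males; filled diamonds passed both thresholds. At 3 dpl in females all 10 lie above 0 and 6 passed, at 7 dpl in males *Pmel* and *Mlana* passed at −1.51 and −1.78, and at 14 dpl in males all 10 lie below 0 and *Rpe65* passed at −1.61.

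The difference between the sexes in the SCFA response was tested by an interaction term and was not called for any member at any day by edgeR or DESeq2, where edgeR called 0% of all genes. Its unadjusted p was under 0.05 in 4, 1 and 0 members at 3, 7 and 14 dpl. At 3 dpl it was below 0 in all 10 members, from −1.71 (*Tyrp1*) to −0.67 (*Mlana*), with adjusted p of 0.30 or more. Averaged over the 6 combinations of sex and day, no member was called with SCFA by edgeR or DESeq2 and 0 had an unadjusted p under 0.05, where 0.703% of all genes were called; *Pmel* (−0.53) and *Mlana* (−0.55) lay farthest from 0 and the other 8 between −0.18 and 0.02.

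Between the sexes, SCFA-treated males at 3 dpl were lower than SCFA-treated females in 4 of 10 members, where 2.82% of all genes were called and 1.43% were called and lower. *Rpe65* measured 26.1, 8.38 and 13.1 CPM in the males (−1.57 ± 0.52, adjusted p = 0.064), beside the female values given above. *Rgr* (−1.60 ± 0.48, adjusted p = 0.049), *Ttr* (−1.56 ± 0.45, adjusted p = 0.045) and *Lrat* (−1.53 ± 0.52, adjusted p = 0.070) were lower too, and the groups overlapped in each. This comparison shares the female SCFA libraries with that at 3 dpl above. Without female SCFA 3 dpl replicate 2, 0 members were called, as without male SCFA 3 dpl replicate 1 or replicate 2, while 7 were called without female SCFA 3 dpl replicate 4. In the first run alone, which leaves 1 male library assumed to vary like the other groups, 4 were called, but these were *Ttr*, *Tyr*, *Tyrp1* and *Pmel*. The 9 lens crystallins were all lower in males, and so were 4 of 18 other pigment epithelium genes, 2 of 15 other visual cycle genes, 2 of 11 other melanosome genes and 1 of 8 choroid genes. *Stra6* is again counted in both the pigment epithelium and the visual cycle list. In the other comparisons of males with females, control or SCFA, no member was called by edgeR or DESeq2, and an unadjusted p under 0.05 was found in 0 members in controls and in 3 and 2 with SCFA at 7 and 14 dpl. Their log2 fold changes lay between −0.49 and 0.68 in controls at 3 and 7 dpl, between −0.80 and 0.26 in controls at 14 dpl, and between −1.20 and 1.23 in the SCFA groups at 7 and 14 dpl. Over all genes the share called was 0.0385%, 0.0275% and 0.44% in controls at 3, 7 and 14 dpl, and 0.115% and 0.033% with SCFA at 7 and 14 dpl. DESeq2 gave 3 members no adjusted p in controls at 14 dpl, so it could not call them.

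Over time no member was called between 3 and 7 dpl or between 7 and 14 dpl, with the sexes averaged, in controls or with SCFA, by edgeR or DESeq2. DESeq2 gave 1 member no adjusted p between 7 and 14 dpl in controls, so it could not call that member. In controls, *Tyrp1*, *Pmel* and *Mlana* had log2 fold changes of 0.98, 1.37 and 1.23 between 3 and 7 dpl and of −0.77, −1.32 and −1.67 between 7 and 14 dpl. Their unadjusted p was under 0.05 in both steps, but no adjusted p was below 0.37. The other 7 members lay between −0.28 and 0.63 in the first step and between −0.26 and 0.44 in the other. With SCFA all 10 log2 fold changes were below 0 in both steps, from −1.24 to just under 0 and from −0.69 to −0.21, with an unadjusted p under 0.05 in 3 members and in 1. Of all genes, 0% were called in either step in controls and in the first step with SCFA, and 0.0055% in the last step with SCFA.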

How the data were processed

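RNA of pooled retinas was sequenced from libraries made with the Novogene NGS RNA Library Prep Set, and the authors deposited 1 table of raw read counts per gene for 43 libraries. The genome build is mm10 per the labels' processing notes, which also name DESeq2; the aligner, the counter, its annotation and its strand setting are not given in the sources used here. Groups were taken from the sample titles, since the treatment field reads control throughout. Of 54532 gene identifiers, 54495 were matched to GENCODE M21 (GRCm38) for symbols, exon lengths and overlaps, and 37 were not.

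Counts were filtered by filterByExpr (18197 genes left), scaled by TMM and fitted in edgeR 4.0.16 (R 4.3.3) by the quasi-likelihood method, all 43 libraries in 1 fit with a term for each of the 12 groups and 1 for the run of columns (31 or 12). P-values were adjusted by Benjamini-Hochberg over all genes tested, and a gene was called at an adjusted p under 0.1 with an absolute log2 fold change over 1. In all, 21 contrasts were tested. Every adjusted p in the text comes from this fit or a named alternative. The fit was tested on simulated data with known changes. That simulation had the same spread for all genes, no effect of the run, and changes larger than those of the members called in this fit. It thus does not show how well changes of the members' size are found. Scores are means of log2(CPM + 1). Levels between genes were compared per kilobase of exon.

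The 10 genes and the marker lists were chosen with earlier results of these data known. All 10 are named; a fold change with its error is printed where a gene was called, others by range. Of the lists, called genes are counted and up to 4 named. Of the 10 genes most like the members, 1 is not reported here. The alternatives were DESeq2 1.42.0, size factors in place of TMM, other filters and thresholds, no block, the first run alone, a robust fit, a replicate block, fits of the compared groups or the libraries of the study's own comparisons apart, and leaving out each library. Leaving out the 2 libraries that stand apart together was added after seeing the data. Libraries are pools of different animals, so p-values measure the spread between pools; no 2 libraries of a group agreed within counting noise. Counting error weighs most on *Best1* and *Mlana*, at medians of 11 and 39 counts per library.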

Additional observations from a re-analysis of the deposited data

Results flagged for a closer look

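Single libraries far from the others of their group were looked for in the groups of 4 and 5 libraries, in the CPM of each member and in the scores, with Dixon's test at the 95% level; it was passed in 4 of 65 cases, and chance alone passes about 1 in 20. *Lrat*, at 91.7 CPM, and *Best1*, at 1.39 CPM, were high in female SCFA 3 dpl replicate 2, where the other 4 libraries held 7.17 to 30.8 CPM and 0.512 to 0.760 CPM. That library is also the one with 269129 CPM of lens crystallins. *Pmel* was high at 16.0 CPM in male SCFA 7 dpl replicate 3, beside 3.43 to 6.01 CPM in the other 4 libraries. *Lrat* was low at 3.17 CPM in male control 3 dpl replicate 4, beside 8.72 to 9.37 CPM in the other 3. The latter library held the lowest summed level of the 10 members, 79.0 CPM.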

How the results depend on the processing

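No log2 fold change of a called member changed its sign under any alternative, but most counts of called members moved. For SCFA over control in females at 3 dpl (6 called), 2 were called at an adjusted p under 0.05, 0 without the block for the column run and 0 without the 2 libraries that stand apart. For males at 7 dpl (2 called), 1 was called at an adjusted p under 0.05, in the first run alone, in the robust fit and with a replicate block. For males at 14 dpl (1 called), 0 were called at an adjusted p under 0.05, without the block and in the robust fit, 3 without the 2 libraries that stand apart, and 5 when these groups, or the same libraries as the study's, were fitted apart. For SCFA-treated males over females at 3 dpl (4 called), 2 were called at an adjusted p under 0.05, 7 without the block, 1 without the 2 libraries that stand apart and 0 when fitted apart. In females at 7 dpl 1 was called in the first run alone and 1 by DESeq2, and in females at 14 dpl 2 among the study's libraries fitted apart, where 0 were called in the fit reported. Leaving out 1 library each time gave 0 to 8 called members in females at 3 dpl, 0 to 2 in females at 7 dpl, 0 to 2 in males at 7 dpl, 0 in males at 14 dpl, 0 to 7 for SCFA-treated males over females at 3 dpl and 5 to 7 between the runs. RLE size factors and the CPM filter moved no count past 1.5 times.

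The fit without a filter on low counts took in 35603 genes and estimated an infinite prior degree of freedom, against 7.19 in the fit reported, so that all genes shared 1 trend of spread and p-values became very small. Its counts were 2 in females at 7 dpl and 5 in males at 14 dpl for SCFA over control, 7, 3 and 2 for SCFA-treated males over females at 3, 7 and 14 dpl, 2, 2 and 2 for 7 over 3 dpl in controls, 14 over 7 dpl in controls and 7 over 3 dpl with SCFA, and 8, 1 and 1 for the difference of the SCFA response between the sexes at 3, 7 and 14 dpl. DESeq2 left up to 3 members without an adjusted p in a comparison, and these were counted as not called.

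Replicate numbers are shared between groups, but same-numbered control and SCFA libraries did not deviate together: r of their deviations ran from −0.54 to 0.60 and was above 0.1 in 6 of 18 pairs. With the replicate block, 7 members were called in females at 3 dpl, 1 in males at 7 dpl, 1 in males at 14 dpl, 5 for SCFA-treated males over females at 3 dpl and 2 between the runs of columns, *Rdh5* and *Ttr*. Depth limits *Best1*, at 3 to 19 counts per library, and *Mlana*, at 4 or more with a median of 39, the most.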
